A study of Mus musculus with 6 samples.

Results

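The cytosolic ribosomal protein genes were examined in embryoid bodies (EBs) of wild-type (WT) and Tnfaip2-/- mouse embryonic stem cells (ESCs). Members are the protein-coding genes whose symbols start with Rpl or Rps and a digit, together with Rpsa, Rplp0, Rplp1, and Rplp2. Processed copies with -ps in their symbol and the kinases of the Rps6k family were dropped, which left 86 of the 52636 genes in the table. Of these, 77 encode core subunits of the ribosome, 46 in the large and 31 in the small subunit. The other 9 members are 7 paralogues of core genes, the retrocopy Rps27rt, and Rps19bp1, whose product binds RPS19 and is no subunit.

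RNA from 3 WT and 3 Tnfaip2-/- EB samples was sequenced to ask how the transcriptome of differentiating ESCs differs without Tnfaip2. WT EBs were made from the parental line E14, and Tnfaip2-/- EBs from a single E14 clone with a premature stop that was introduced into exon 2 by CRISPR. Cells of both genotypes spent 3 days in hanging drops and 3 days on gelatin in medium for fibroblasts, and the sample labels name no further treatment. The libraries held between 21765931 and 23804489 counts on genes. The edited gene, Tnfaip2, was counted 7, 4, and 7 times in the WT samples and 0, 2, and 2 times in those labelled Tnfaip2-/-. These counts lie under the expression filter and their order follows the labels, but no fold change is given at this depth. The study's methods call the samples biological replicates without saying how the cultures were separated, and since each genotype is 1 line, p-values measure the spread between cultures of that line.

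Ribosomal proteins are made in the cytoplasm, imported into the nucleolus, and assembled there on ribosomal RNA (rRNA) into a large subunit, which forms peptide bonds, and a small subunit, which reads the mRNA. Almost all core proteins are present as a single copy per ribosome, and proteins made in excess are degraded. Their mRNAs are among the most abundant in growing cells and start with a run of pyrimidines, the 5′ terminal oligopyrimidine (TOP) tract, through which mTOR signalling controls their translation.

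EB samples of both genotypes expressed the pluripotency genes. Pou5f1 was at 760 ± 9.63 CPM (counts scaled to the same library size in every sample) in WT and 419 ± 5.97 CPM in Tnfaip2-/- EBs (SD, n = 3), while Sox2, Nanog, Zfp42, and Dppa3 were higher in Tnfaip2-/- EBs, and the sum of these 5 genes lay between 1510 and 1550 CPM in every sample. The sum of the mesoderm genes T, Mixl1, and Fgf8 was 56.2, 54.9, and 57.9 CPM in the WT samples and 1.58, 0.868, and 1.22 CPM in the Tnfaip2-/- samples, with T at 5, 3, and 1 counts in the latter. The neural genes Sox1 and Pax6 summed to 77.5 CPM or more in each WT sample and to 31.1 CPM or less in each Tnfaip2-/- sample. Of the endoderm genes, which summed to between 9.11 and 10.5 CPM, Sox17 was called higher (not in DESeq2, nor without WT replicate 3 or Tnfaip2-/- replicate 3), Foxa2 and Afp lower, and Gata6 neither. Fibroblast genes had low levels in both genotypes: Col1a1, Col1a2, Thy1, and Dcn summed to 8.93 CPM or less in each sample, with Thy1 the most abundant, Col1a2 lower in Tnfaip2-/- EBs, and Dcn at 0 counts in 2 of the Tnfaip2-/- samples. Markers of several cell types thus differed between genotypes, and their part in the results below was not tested. Fewer cells of a type and less RNA per cell cannot be told apart in these samples.

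All 86 members passed the expression filter. In the quasi-likelihood test of edgeR, with p-values adjusted by Benjamini-Hochberg across 17849 tested genes, 72 members (83.7%) had an adjusted p below 0.05, against 67.7% of all genes tested. They moved in both directions: 39 members were higher in Tnfaip2-/- EBs (34.0% of all genes tested were called higher) and 33 were lower (33.7% of all genes). The members' median log2 fold change was 0.04, beside 0.003 for all genes tested. Without WT replicate 2 the median log2 fold change of ribosomal protein genes was 0.0101, with 35 members higher and 38 lower, and with a correction for length and GC content it was 0.0158. Changes were small and measured with small errors. The median WT level of a member was 821 CPM and its median standard error was 0.0257 on the log2 scale, against 14.8 CPM and 0.0708 for all genes tested. In a test against a fold change of 1.2, 14 members (16.3%) passed, 6 higher and 8 lower, against 37.4% of all genes. Against a fold change of 1.5, Rpl3l and Rpl7l1 alone passed (2.33%, against 15.7% of all genes). WT and Tnfaip2-/- samples did not overlap in 68 members (79.1%, against 69.4% of all genes). Among the core subunits, 61 of 77 differed by less than 1.2-fold and the largest difference was 1.378-fold.

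**Figure D1:**
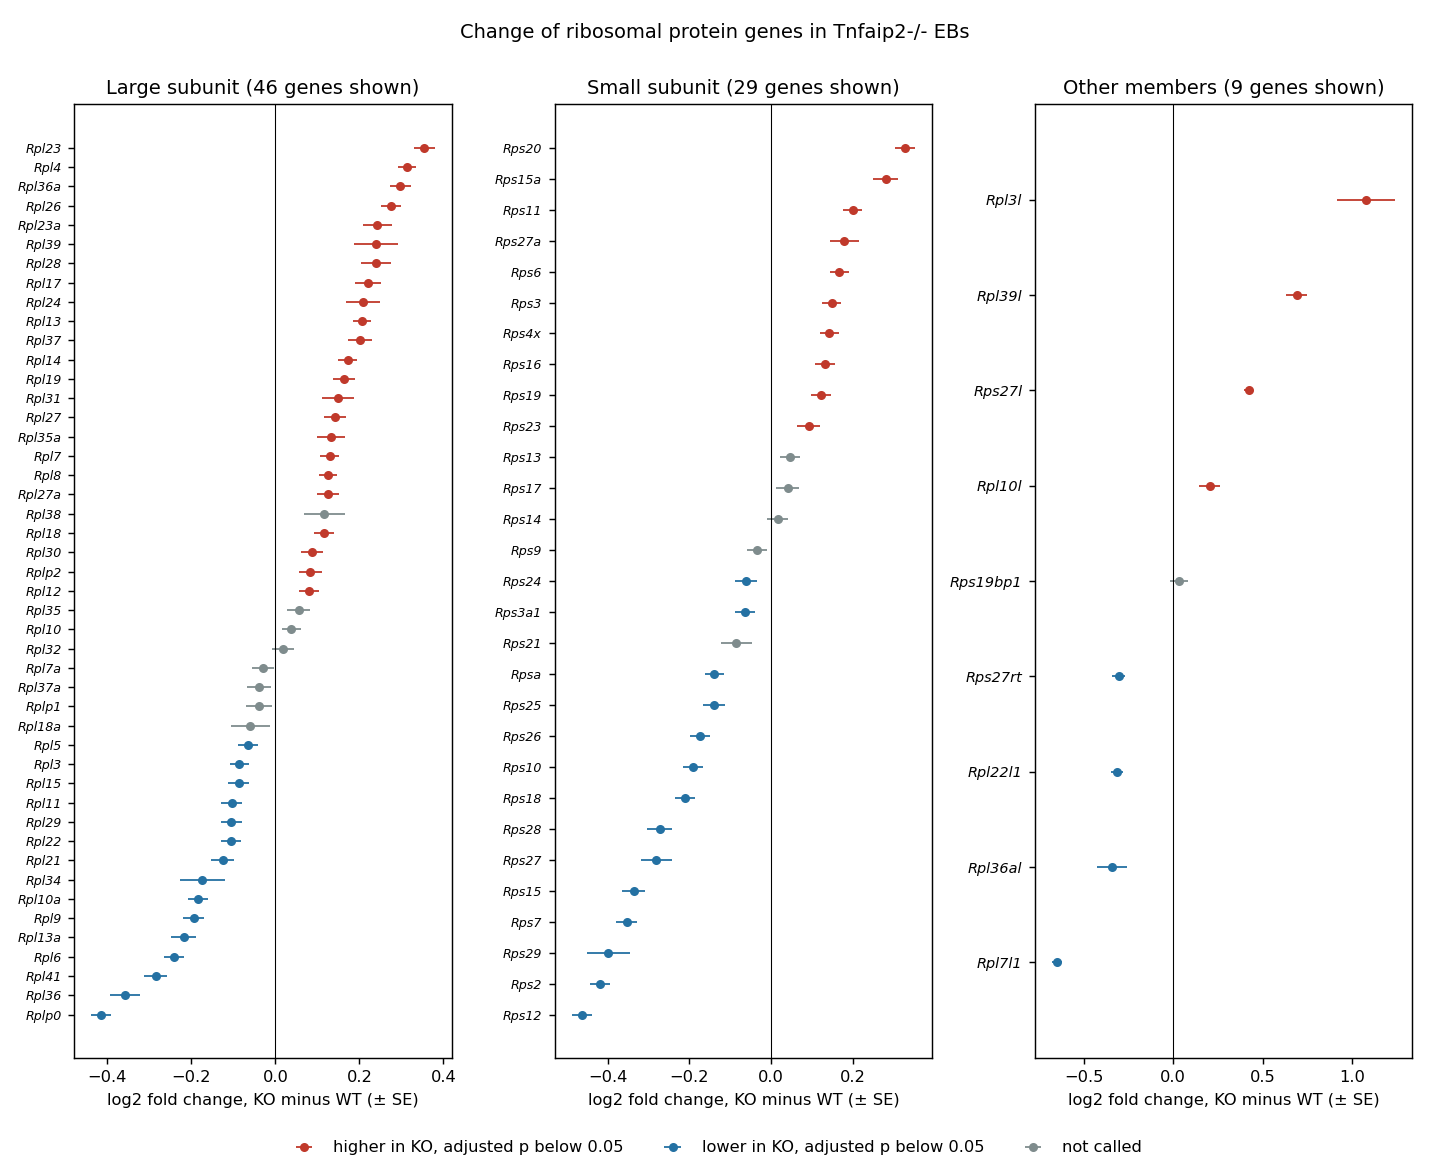
Log2 fold change of the members shown (Tnfaip2-/- minus WT, horizontal axis) with its standard error, in panels for the large subunit, the small subunit, and the other members, each with its own scale. Red points had an adjusted p below 0.05 and were higher, blue points were lower, and grey points were not called; core genes run from -0.46 (Rps12) to 0.35 (Rpl23), and the widest changes are the rises of Rpl3l and Rpl39l and the fall of Rpl7l1.

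In the large subunit, 23 of 46 core genes were higher and 15 were lower, with a median log2 fold change of 0.08. Rpl23, whose product lies on the face that meets the small subunit, had the largest rise of the core genes. Its levels were 1104, 1026, and 1082 CPM in the WT samples and 1340, 1410, and 1357 CPM in the Tnfaip2-/- samples. Every Tnfaip2-/- sample lay above every WT sample, at a log2 fold change of 0.35 with standard error 0.0247 (edgeR quasi-likelihood, adjusted p = 3e-17). Rpl4, which helps line the tunnel through which the new peptide leaves, was at 2892, 2866, and 2915 CPM in WT and at 3606, 3638, and 3533 CPM in Tnfaip2-/- EBs (log2 fold change 0.31, standard error 0.0216, adjusted p = 1.98e-17). Rpl36a, on the X chromosome, rose from 446 ± 12.5 to 548 ± 10.8 CPM (SD, n = 3; log2 fold change 0.30, adjusted p = 1.41e-14), and 85.5% of the read-length windows in its transcript also occur in other genes. Of the 9 genes whose products line or surround the exit tunnel, 7 were higher and 1, Rpl22, was lower, with a median log2 fold change of 0.22. The remaining gene, Rpl35, was not called (log2 fold change 0.06, edgeR adjusted p = 0.0662). Of all genes tested, 34.0% were called higher and 33.7% lower. These genes were not tested against the rest of the large subunit, and their chromosomes, described below, were not taken into account.

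The largest fall in the large subunit was that of Rplp0, the base of the stalk that recruits translation factors. It was at 1872, 1829, and 1861 CPM in the WT samples and at 1343, 1410, and 1419 CPM in the Tnfaip2-/- samples. All samples of a genotype lay well apart from those of the other, at a log2 fold change of -0.42 with standard error 0.0231 (edgeR, adjusted p = 8.73e-21). Rplp1 and Rplp2, which encode the proteins that RPLP0 anchors, showed smaller values. Rplp1 was at 1644, 1526, and 1656 CPM in WT and at 1622, 1592, and 1481 CPM in Tnfaip2-/- EBs, with overlapping groups (log2 fold change -0.04, adjusted p = 0.279). Without WT replicate 2 it was called lower, where the log2 fold change of Rplp1 was -0.08. The log2 fold change of Rplp2 was 0.08 (adjusted p = 0.00825), but its groups overlapped and the call was lost without WT replicate 2 (log2 fold change 0.04), without Tnfaip2-/- replicate 2 (0.06), without the expression filter (0.06), and in DESeq2 (0.08). Rpl36 fell from 345 ± 23.5 to 269 ± 7.71 CPM (SD, n = 3; log2 fold change -0.36, adjusted p = 1.27e-08). Rpl5 and Rpl11, whose products form a particle with 5S rRNA and can bind MDM2, were lower by small amounts, Rpl5 at -0.06 on the log2 scale (adjusted p = 0.0163) and Rpl11 at -0.10 (adjusted p = 0.000403). Samples of the genotypes overlapped in both, and Rpl5 was no longer called without WT replicate 3, without Tnfaip2-/- replicate 1, with the replicate number as a block, or with either library size alone or the upper quartile as the scale. Rpl38, which is needed for normal axial patterning in mice, was not called, at a log2 fold change of 0.12 with standard error 0.0486 (adjusted p = 0.0569), though 8 of its alternatives called it higher.

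In the small subunit, 12 of 31 core genes were higher and 14 were lower, and the median log2 fold change was -0.03. In the head 6 of 14 genes were higher and 7 lower, with 28.6% past 1.2-fold, and in the body 6 of 17 were higher and 7 lower, with 11.8% past 1.2-fold; the difference was not tested. Rps12, a protein of the head, had the largest fall of all core genes. Its levels were 1159, 1097, and 1171 CPM in the WT samples and 830, 857, and 800 CPM in the Tnfaip2-/- samples. No sample of one genotype came near the other, and the log2 fold change was -0.46 with standard error 0.0253 (edgeR, adjusted p = 4.75e-21). Rps2, which lies near the entry of the mRNA channel, was at 1528, 1472, and 1520 CPM in WT and at 1067, 1141, and 1172 CPM in Tnfaip2-/- EBs (log2 fold change -0.42, adjusted p = 6.45e-19). Rps29 of the head was lower, with 575 ± 34.4 CPM in WT and 436 ± 25.3 CPM in Tnfaip2-/- EBs (SD, n = 3; log2 fold change -0.40, edgeR adjusted p = 0.000122). Rps7 of the body was lower as well, with 774 ± 34.4 and 606 ± 17.2 CPM (SD, n = 3; log2 fold change -0.35, edgeR adjusted p = 3.44e-16).

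Rps20 of the head rose most in the small subunit, from 1315, 1238, and 1308 CPM in the WT samples to 1607, 1664, and 1577 CPM in the Tnfaip2-/- samples (log2 fold change 0.33, standard error 0.0242, adjusted p = 2.13e-16). Rps15a of the body was at 928, 892, and 996 CPM in WT and at 1168, 1154, and 1099 CPM in Tnfaip2-/- EBs (log2 fold change 0.28, adjusted p = 1.73e-08). All Tnfaip2-/- samples exceeded all WT samples in both genes. Rps6, the main ribosomal target of S6 kinase, rose by 0.17 on the log2 scale (adjusted p = 2.97e-08), and Rps19, the gene most often mutated in Diamond-Blackfan anemia, by 0.12 (adjusted p = 2.48e-05). Rps27a, made as a fusion with ubiquitin, rose by 0.18 (adjusted p = 0.000359), and the X-linked Rps4x by 0.14 (adjusted p = 5.27e-07). Rpsa, also known as a laminin receptor, was lower, at -0.14 on that scale (adjusted p = 4.32e-07).

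**Figure D2:**
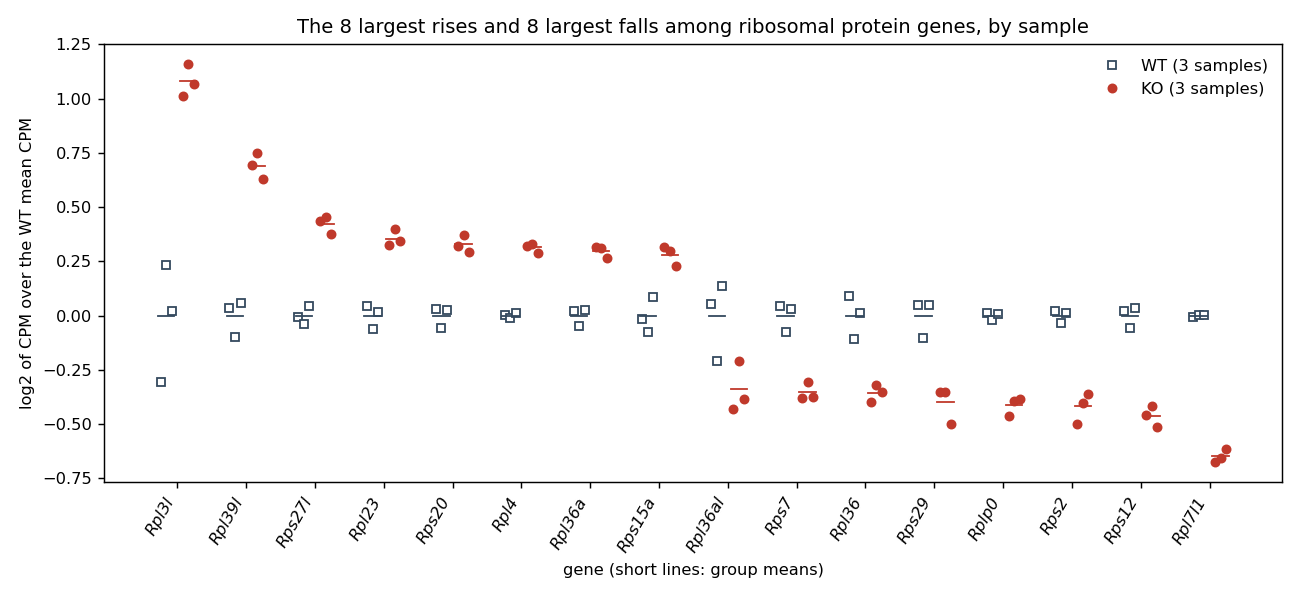
Level of the 8 members with the largest rise and the 8 with the largest fall in each sample, as the log2 of its CPM over the WT mean (vertical axis); open squares are the 3 WT samples, filled circles the 3 Tnfaip2-/- samples, and short lines the group means. The groups are apart in each of the 16 genes, except that WT replicate 2 and Tnfaip2-/- replicate 2 nearly touch in Rpl36al (11.70 and 11.69 CPM).

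Compared per kilobase of exon, Rplp1 had the highest WT level of the members (3223 CPM per kb), followed by Rps15 (1794), Rpl8 (1754), Rpl32 (1516), and Rpl4 (1440), and the median of the core genes was 470 CPM per kb. The order depends on the length used: per kilobase of 1 main transcript in place of all annotated exons, Rplp1 was also highest, but Rpl32 (2823 CPM per kb) and Rpl8 (2802) came next, and Rps18 (2433) and Rps14 (2321) lay above Rps15 (2260) and Rpl4 (1880). Counting only the windows that occur in no other gene as length, Rps27 was highest and Rplp1 was not among the first 5, so no order of levels holds for every length. Among the 5 first named, the levels of Rplp1 and Rpl32 overlapped between genotypes, and the log2 fold change of Rpl32 was 0.02 (adjusted p = 0.567). Rps15 fell (log2 fold change -0.34, adjusted p = 9.77e-13) and Rpl8 rose (0.13, adjusted p = 2.37e-06). Rpl24 had the lowest level of the core genes, 49.0 CPM per kb. A gene annotated across its locus covers 47.0% of its exon bases, so that the level of Rpl24 is uncertain. Only unique matches were counted, and what part this has in the levels was not tested. In the median core gene, 43.9% of the 51-base windows of the transcript also occur in transcripts of other genes. The share was 98.6% in Rps27, and in 34 of the 77 core genes it was over 50%. Across the core genes this share had a Spearman correlation of 0.0278 with the WT level per kb and of -0.177 with the log2 fold change (n = 77 genes, all measured in the same libraries).

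Per kilobase of exon, each of the 7 paralogues had a lower WT level than the core gene it resembles, and the widest changes of all members were among them. Rpl3l, known as the muscle form of Rpl3, was at 1.32, 1.92, and 1.66 CPM in the WT samples and at 3.30, 3.65, and 3.43 CPM in the Tnfaip2-/- samples. It is nearly silent in both genotypes, with 43 counts or fewer per WT sample and 80 or fewer per Tnfaip2-/- sample, and the groups did not overlap (log2 fold change 1.08, standard error 0.164, adjusted p = 1.43e-07). Rpl3 itself had a log2 fold change of -0.09 (adjusted p = 0.000798). Rpl39l, best known from testis, was at 17.5, 15.9, and 17.8 CPM in WT and at 27.6, 28.6, and 26.4 CPM in Tnfaip2-/- EBs (log2 fold change 0.69, adjusted p = 2.8e-14), and Rpl39 rose as well (0.24, adjusted p = 0.00307). None of the windows of Rpl3l and Rpl39l occurs in another gene. Rpl10l, the retrocopy that takes the place of Rpl10 in male germ cells, was at 20.3, 18.8, and 20.9 CPM in WT and at 23.4, 23.3, and 22.5 CPM in Tnfaip2-/- EBs (log2 fold change 0.20, adjusted p = 0.00216), while Rpl10 did not pass the threshold (0.04, adjusted p = 0.128).

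Rps27l, a p53-responsive paralogue, was at 237, 232, and 246 CPM in WT and at 322, 327, and 310 CPM in Tnfaip2-/- EBs (log2 fold change 0.42, adjusted p = 1.38e-18). Rps27 moved the other way, from 727 ± 43.7 to 598 ± 24.3 CPM (SD, n = 3; log2 fold change -0.28, adjusted p = 9.72e-06). Rpl7l1, a relative of Rpl7 known from precursors of the large subunit, was at 188.5, 189.4, and 189.7 CPM in WT and at 118.4, 120.1, and 123.6 CPM in Tnfaip2-/- EBs, the largest fall of any member (log2 fold change -0.65, standard error 0.0288, adjusted p = 1.86e-24). Rpl7 rose (0.13, adjusted p = 3.03e-06). Rpl36a and Rpl36al also went in opposite directions, with log2 fold changes of 0.30 and -0.34 (adjusted p = 0.000318 for Rpl36al). Rpl22 and Rpl22l1 both fell, by 0.11 and by 0.31 on the log2 scale (adjusted p = 0.000192 and 1.31e-10). The pairs thus did not share a direction: of the 7 pairs with both genes measured, 2 moved the same way, 4 moved in opposite ways, and in 1 a single gene was called; with upper-quartile scaling or library size alone Rpl10 was called higher too (the log2 fold change of Rpl10 was 0.06 and 0.07), which puts its pair with those that moved the same way. Of the pair Rps4x and Rps4l, Rps4l is not a member.

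The products of Fau and Rack1 are also parts of the ribosome, though their symbols fall outside the rule. Rack1, a scaffold on the head of the small subunit, had a log2 fold change of -0.07 (adjusted p = 0.00291), which was not called with upper-quartile scaling. Fau, made as a fusion with a ubiquitin-like protein, was not called (0.02, adjusted p = 0.594).

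As a share of all counts, the members took 7.73%, 7.39%, and 7.76% in the WT samples and 7.79%, 8.01%, and 7.76% in the Tnfaip2-/- samples. The groups overlapped, and the difference of 0.226 percentage points (7.63 ± 0.203% against 7.85 ± 0.136%, SD, n = 3) had a two-sided exact permutation p of 0.2, where 3 against 3 samples cannot go below 0.1. The difference was 0.109 without WT replicate 2, the sample with the lowest share, and 0.0778 with the effective library size as the denominator. The large subunit took 4.27%, 4.09%, and 4.27% of the counts in WT and 4.383%, 4.499%, and 4.357% in Tnfaip2-/- EBs, without overlap (exact permutation p = 0.1). With the effective library size as the denominator, an alternative added after seeing the data, the groups overlapped and the difference was 0.123 in place of 0.206 percentage points (exact permutation p = 0.3). The small subunit took 3.38%, 3.23%, and 3.41% in WT and 3.33%, 3.43%, and 3.32% in Tnfaip2-/- EBs (exact permutation p = 0.8). The ratio of large-subunit to small-subunit counts was 1.261, 1.268, and 1.251 in WT and 1.315, 1.311, and 1.311 in Tnfaip2-/- EBs, again without overlap (exact permutation p = 0.1). Counts on the genes encoded in mitochondria, a common sign of RNA quality, also differed, with 2.54 ± 0.0223% in WT and 2.25 ± 0.0421% in Tnfaip2-/- EBs (SD, n = 3). Replication-dependent histone genes took 0.00655 ± 0.000535% and 0.00471 ± 6.1e-05% of the counts, and annotated rRNA genes of the nucleus no more than 4.13e-05% in any sample; what part these differences have in the shares was not tested.

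**Figure D3:**
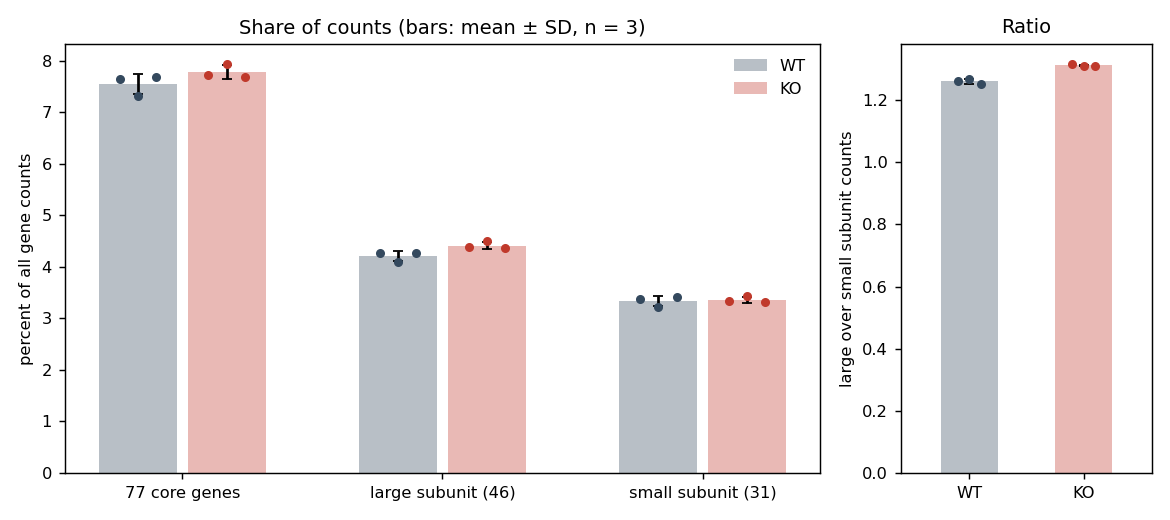
Percent of all gene counts on the 77 core genes and on the 46 large-subunit and 31 small-subunit genes (left), and the ratio of large-subunit to small-subunit counts (right); bars are means with SD, points the 3 samples of each genotype. With all counts as the denominator, WT and Tnfaip2-/- samples overlap for the small subunit and are apart for the large subunit and the ratio; with the effective library size the large subunit overlaps too.

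Core genes on some chromosomes moved in a single direction, and others were mixed. On chromosome 17, all 6 core genes (Rpl10a, Rpl36, Rps2, Rps10, Rps18, and Rps28) were lower in Tnfaip2-/- EBs, with log2 fold changes between -0.42 and -0.18. All 5 on chromosome 5, all 4 on chromosome 10, all 3 on chromosome 3, and both on chromosomes 12 and 14 were lower as well. Of these calls, 4 were lost when a sample was left out: Rpl5 (chromosome 5), Rpl34 and Rps3a1 (chromosome 3), and Rps24 (chromosome 14), of which Rpl5, Rps3a1, and Rps24 were also lost with the replicate number as a block (adjusted p = 0.0681, 0.0712, and 0.0894 from edgeR). On chromosome 11, 6 of 7 were higher and 1 was not called, and on chromosome 7, 10 of 14 were higher, 3 were not called, and Rpl13a was lower. Both genes on chromosome 16 and 3 of 4 on the X chromosome were higher, with the fourth not called. Chromosome 4 had 3 genes higher and 2 lower, and chromosome 15 had 3 higher and 1 lower. Chromosome 9 was mixed too, with 2 genes higher (Rpl4 and Rpl14), 3 lower (Rpsa, Rpl29, and Rps25), and Rplp1 not called. Many other tested genes of these chromosomes were called in the same direction. The share called lower was 55.5% on chromosome 17, 53.3% on 5, 49.0% on 10, 51.8% on 3, 49.3% on 12, and 41.7% on 14. The share called higher was 47.0% on chromosome 11, 40.4% on 7, 43.6% on 16, and 38.6% on X.

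Medians of the core genes and of the other genes had the same sign on 16 of the 17 chromosomes with at least 2 core genes, the exception being chromosome 9 (-0.07 for the core and 0.09 for the other genes). The median log2 fold change of the tested genes that are neither members nor copies of members was -0.26 on chromosome 17 (776 genes), -0.21 on chromosome 5, -0.20 on chromosome 3, -0.19 on chromosome 12, and -0.18 on chromosome 10, and it was 0.12 on chromosome 11 (1366 genes) and 0.09 on chromosome 7. Across the 77 core genes, the log2 fold change had a Pearson correlation of 0.774 and a Spearman correlation of 0.63 with the median of the other genes on the same chromosome. Both values of each point come from the same 6 libraries, and genes of a chromosome share 1 median. The correlation was 0.733 without chromosome 17, and 0.729 with the median of neighbours within 5 Mb, which took in between 19 and 229 genes. It was 0.751 in the large and 0.78 in the small subunit. Of the 64 core genes that were called, 56 lay on the side of their chromosome's median. Called or not, 62 of the 77 core genes (80.5%) had the sign of that median, beside 60.3% of the 17528 other tested genes. Subtracting that median reduced the SD of the core log2 fold changes from 0.204 to 0.131. The corresponding Pearson correlation was 0.183 over the 17528 other tested genes and 0.325 over the 2130 of them with at least 100 CPM in WT EBs. Over the members outside the core it was 0.168 (n = 9). This comparison was chosen after the values had been seen, and shifts of whole chromosomes were known from earlier results on the same samples, so it gives no independent support. The copy number of the chromosomes was not tested, and the DNA of the lines was not analysed here.

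**Figure D4:**
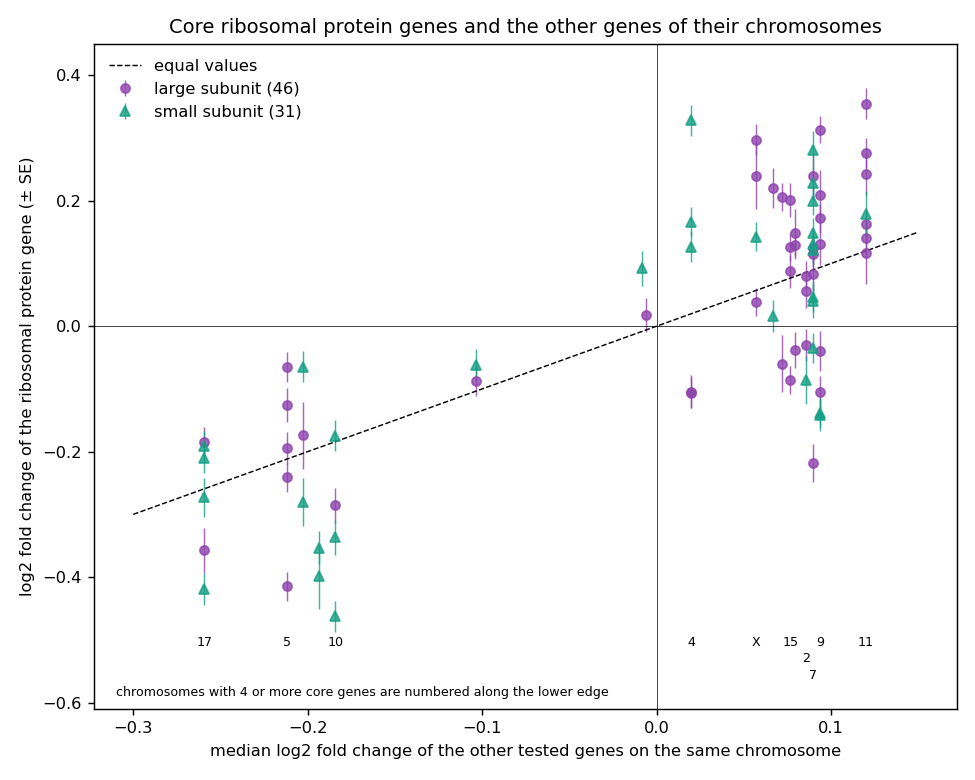
Log2 fold change of each of the 77 core genes with its standard error (vertical axis) against the median log2 fold change of the other tested genes on its chromosome (horizontal axis), for the large subunit (circles) and the small subunit (triangles); the dashed line marks equal values. Genes of chromosomes 17, 5, and 10 sit at the lower left and those of chromosome 11 at the upper right, with a Pearson correlation of 0.774.

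Taken as shares of counts, the 24 core genes on chromosomes whose other genes had a median below 0 gave 2.36%, 2.25%, and 2.37% in WT and 2.01%, 2.07%, and 2.01% in Tnfaip2-/- EBs. The 53 core genes on the other chromosomes gave 5.29%, 5.07%, and 5.31% in WT and 5.70%, 5.86%, and 5.67% in Tnfaip2-/- EBs. Samples of the genotypes did not overlap in either share, with the first lower and the second higher in Tnfaip2-/- EBs. The split was made by medians from the same libraries, after their relation to the core genes had been seen. The lack of overlap therefore gives no independent support. In the first group 22 genes were lower and 1, Rps23, was higher; in the second 34 were higher and 7 were lower.

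Called core genes that went against their chromosome were Rpl13a, Rps25, Rpsa, Rpl22, Rpl29, Rpl11, and Rpl3, which were lower, and Rps23, which was higher. For 3 of them the side rests on a median near 0, with 0.02 on chromosome 4 (Rpl22 and Rpl11) and -0.01 on chromosome 13 (Rps23). The call for Rps23 was lost without WT replicate 2 (log2 fold change 0.04 against 0.09, edgeR adjusted p = 0.161). Rpl13a (chromosome 7), a protein that also takes part in silencing inflammatory mRNAs, was at 174, 168, and 174 CPM in WT and at 142, 154, and 147 CPM in Tnfaip2-/- EBs. Its log2 fold change of -0.22 (adjusted p = 1.39e-08) stands beside 0.09 for the other genes of chromosome 7 and 0.25 for its copy Rpl13a-ps1 on chromosome 19. Of its exon bases, 35.4% are covered by other annotated genes, among them the small nucleolar RNA (snoRNA) Snord33.

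Copies of the members that sit on other chromosomes followed their parent and not their own chromosome. Of the copies with at least 100 counts on average and a parent on another chromosome, 171 from 51 parents were compared, and 164 had a log2 fold change of the same sign as the parent. Across these copies the Pearson correlation was 0.945 with the parent and -0.161 with the median of the copy's own chromosome (n = 171 copies; copies of a parent share its value). Rps12 on chromosome 10 has 20 such copies on 6 chromosomes. Most of them lie on the X chromosome, where many have nearly equal counts, so they are not 20 separate observations. All 20 were lower in Tnfaip2-/- EBs, with log2 fold changes between -0.65 and -0.25 where Rps12 had -0.46. Rps2 on chromosome 17 has 6, also all lower, between -0.47 and -0.38. All 6 copies of Rps15a were higher, between 0.23 and 0.31. The member Rps27rt, on chromosome 9, had a log2 fold change of -0.30 (adjusted p = 3.12e-09), near the -0.28 of Rps27 on chromosome 3 and far from the 0.09 of chromosome 9. Reads of a copy and of its parent cannot be told apart where they are nearly identical, so the counts of such rows are uncertain as measures of either locus. Rows of processed pseudogenes in the same families took 1.41% of the WT and 1.47% of the Tnfaip2-/- counts.

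**Figure D5:**
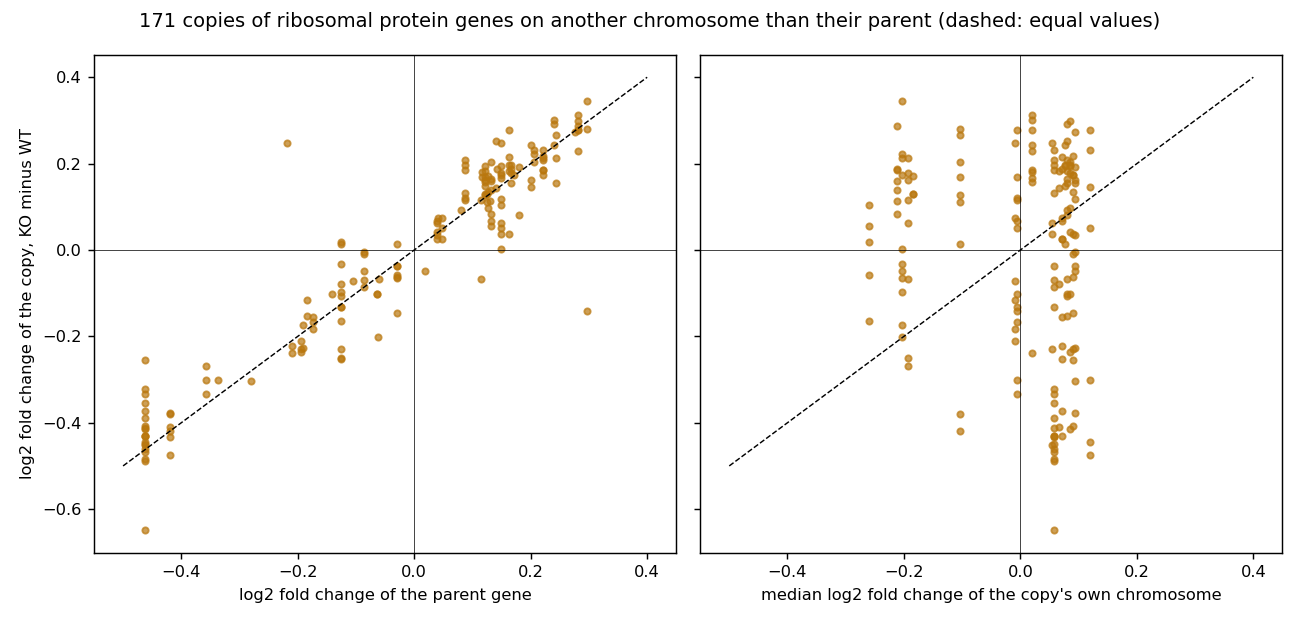
Log2 fold change of 171 copies of ribosomal protein genes (vertical axis) against that of the parent gene (left) and against the median of the other tested genes on the copy's own chromosome (right); each point is 1 copy on another chromosome than its parent, and dashed lines mark equal values. Points follow the line on the left (Pearson correlation 0.945) and not on the right (-0.161).

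Start sites were searched for the pyrimidine pattern of TOP mRNAs. RefSeq promoters (GRCm38.p6) were matched for 66 members, 57 of them core genes. The motif CTTTCC or CTTTTC, the start of a TOP tract, occurred on the sense strand within 50 bases of the annotated start in 26 core genes (45.6%), against 9.27% of the promoters of 26968 other genes, and on the other strand in 5.26% against 8.67%. A C followed by 4 or more pyrimidines lay within 10 bases of the start on the sense strand, a pattern that overlaps the first motif, in 59.6% of the core genes and 34.3% of other genes. CTTCCG, the core of sites for ETS factors, occurred on either strand of the 300-base promoter in 70.2% against 18.7%, CCATCTT, the core of sites for YY1, on either strand in 15.8% against 7.26%, and TATAAA on the sense strand within 50 bases of the start in 7.02% against 4.05%. A match describes the letters only. The 26 core genes with the motif were split between 11 higher and 12 lower (median log2 fold change 0.05), and the 31 without it between 14 higher and 12 lower (-0.03). Sequences from 10 bases before to 20 bases after the annotated start are shown for genes that fell (Rps12 and Rps10), genes that rose (Rpl28 and Rpl35a), and the pair Rps27 and Rps27rt, with the motif in capitals. Rpl35a has other annotated starts, which are not shown and have no motif in the same window. Rps12 lies at chr10:23787190-23787219 on the reverse strand, Rps10 at chr17:27635225-27635254 on the reverse strand, Rpl28 at chr7:4792955-4792984 on the forward strand, Rpl35a at chr16:33056472-33056501 on the forward strand, Rps27 at chr3:90213629-90213658 on the reverse strand, and Rps27rt at chr9:114982720-114982749 on the reverse strand.
Rps12: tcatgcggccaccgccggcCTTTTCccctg
Rps10: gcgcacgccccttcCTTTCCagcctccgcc
Rpl28: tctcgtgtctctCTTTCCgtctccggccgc
Rpl35a: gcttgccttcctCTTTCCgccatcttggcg
Rps27: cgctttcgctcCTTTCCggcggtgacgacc
Rps27rt: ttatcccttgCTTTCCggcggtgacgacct
The motif reads CTTTTC in Rps12 and CTTTCC in the others, at differing distances from the start, and the log2 fold changes were -0.19 for Rps10, -0.46 for Rps12, 0.24 for Rpl28, and 0.13 for Rpl35a. Rps27 and Rps27rt both fell and both carry the motif.

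Genes that serve the ribosome in other ways were compared by lists. Of 73 ribosome biogenesis factors tested, 16 were higher and 43 were lower (median log2 fold change -0.12), where 34.0% of all genes tested were higher and 33.7% were lower; the list was not tested against the ribosomal protein genes. Rrp1b, a nucleolar factor, fell from 156 ± 3.78 to 104 ± 4.16 CPM (SD, n = 3; log2 fold change -0.59, adjusted p = 2.22e-21), and Nop16 had a log2 fold change of -0.55. Riok1, a kinase of late small-subunit maturation, and Gnl2, a GTPase of large-subunit export, rose, with log2 fold changes of 0.38 and 0.36. Of 20 genes for RNA polymerase I and its factors, which transcribe rRNA, 3 were higher and 9 were lower (median 0.002). The subunit Znrd1 had a log2 fold change of -0.80 and the initiation factor Rrn3 one of -0.33, while the termination factor Ttf1 and the shared subunit Polr2f rose (0.48 and 0.22). All of these named genes had an adjusted p from edgeR of 2.22e-06 or less.

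Other genes with TOP mRNAs, most of them translation factors, had 9 higher and 9 lower of 21 (median log2 fold change -0.03). Eif3f and Eif3e, subunits of an initiation factor, rose (log2 fold changes 0.34 and 0.25), and Vim, which encodes vimentin, and Hnrnpa1 fell (-1.28 and -0.39). Of 32 further initiation factors and regulators, 13 were higher and 15 were lower (median -0.004). Eif2s2 (0.59) and Eif5b (0.39) rose, and Eif4ebp2, a repressor of cap-dependent initiation, and Eif2b1 fell (-0.74 and -0.46). Among 13 snoRNA host genes tested of 19 listed, 5 were higher and 1 was lower (median 0.10), with Gas5 (0.40) and Snhg11 (0.35) among the former and Snhg17 (-0.19) as the latter. The mitochondrial ribosome, with 21 of 77 genes higher and 32 lower (median -0.08), had 68.8% of its genes called, near the 67.7% of all genes tested, and included Mrpl45 (0.52) and Mrps6 (0.43), which rose, and Mrps34 (-1.17) and Mrpl34 (-0.60), which fell. The Pearson correlation with the chromosome median was 0.5 for the mitochondrial ribosome (n = 77 genes) and 0.426 for biogenesis factors (n = 73). For the initiation factors it was 0.592 (n = 32). Each was below the 0.774 of the core ribosomal protein genes, and these differences were not tested. By sign the initiation factors were close to the core, with 26 of 32 (81.2%) on the side of that median, beside 80.5%. The share was 55.8% for the mitochondrial ribosome and 56.2% for biogenesis factors.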

How the data were processed

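The deposited table holds counts per gene, which the authors made from 51-base reads by trimming them, mapping to GRCm38 with TopHat2 2.1.0, and counting unique matches on Ensembl genes with featureCounts 1.5.0 (versions from the submitters' processing notes). The strand setting was not given in the sources used here, and the library kit does not keep the strand. All 6 sample columns were used (columns not mapped: 0). Genes were named by GENCODE, which matched 52489 of 52636 identifiers. Counts were fitted with edgeR 4.0.16 (TMM, filterByExpr with a count of at least 10, robust quasi-likelihood, genotype alone) in R 4.3.3. The same fit was also run on simulated data that took gene means and dispersion from these counts. Shares of counts used exact two-sided permutation tests in SciPy 1.17.1. CPM are TMM-scaled, and standard errors derive from the test statistic. DESeq2 1.42.0 and other normalizations, filters, and designs served as alternatives. Named genes were the 8 largest rises and falls among called members with separate groups, the 5 highest and 3 lowest levels per kb, paralogue pairs, 11 subunits listed by role, and the 2 largest rises and falls of each other list; genes against their chromosome, copies, and start-site examples were named after their values were seen. Members and lists were chosen with earlier results of these data known. Overlapping genes on either strand cannot be told apart. Values of some single genes are not reported here.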

Additional observations from a re-analysis of the deposited data

How the results depend on the processing

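Across other normalizations, filters, DESeq2, the legacy fit, the replicate block, the core subunits alone, and leaving out each sample, between 35 and 44 members were higher and between 29 and 38 were lower, and the median log2 fold change of ribosomal protein genes lay between 0.0101 (without WT replicate 2) and 0.0671 (library size alone). Tests against a fold change gave 6 higher and 8 lower (1.2-fold) and 1 each (1.5-fold), since these tests ask for more. The numbers do not pair the samples (mean correlation of deviations -0.0264 for same and 0.0132 for other numbers); with the replicate number as a replicate block, 40 members were higher and 31 lower, the median was 0.0396, and the share of counts differed by 0.226 (exact sign-flip p = 0.5). Alternatives for the correlation of core log2 fold changes with chromosome medians were chosen after seeing the data. The correlation was 0.754 with the length and GC correction, with or without the replicate block, 0.733 off chromosome 17, and 0.729 with neighbours within 5 Mb. Over all 86 members, which adds the 9 outside the core, the correlation was 0.547. The cause of these differences was not tested. The share of counts differed by 0.109 to 0.293 when samples were left out. With the effective library size, added after seeing the data, the small subunit share of counts differed by -0.0425 in place of 0.0217. Of genes not called, 3 changed sign, and the cause was not tested. The log2 fold change of Rpl32 was -0.00091 without the filter and between -0.0287 and 0.0335 when a replicate was left out. The log2 fold change of Fau was -0.00107 without the filter and between -0.0202 and 0.0421 without a replicate, with -0.00179 without Tnfaip2-/- replicate 2. The log2 fold change of Col1a1 lay between -0.186 and 0.158 without a replicate, with 0.134 without Tnfaip2-/- replicate 1. Of the 1359 values for 80 named genes, 1246 kept direction and side of the threshold, and apart from tests against a fold change 13 lost the call, in Rplp2, Rpl5, Rack1, and Sox17, and 11 gained one, in Rpl38, Rpl10, and Rplp1. Of all 72 called members, 8 lost the call without a sample (Rpl5, Rpl12, Rpl30, Rpl34, Rplp2, Rps3a1, Rps23, and Rps24) and 3 with the replicate block.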
